A study of Mus musculus with 3 samples.

Results

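The genes described here are 28 members of the cholesterol synthesis, uptake and efflux pathways of the hepatocyte, chosen by gene symbol among the 32285 features listed for each library. They comprise 20 synthesis genes, of which 8 act before squalene and 12 from squalene synthesis onward, and 8 genes that move, store, take up or export sterol. Each of the 28 symbols matched 1 feature, and each had at least 100 counts summed over the 3 libraries, as did 7855 nuclear-encoded features in all. Mvk, Mvd and Ggps1 reached that sum only through the library from mice given high fat diet plus hyodeoxycholic acid, and Mylip, with 102 counts, only with all 3 libraries.

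The study isolated primary hepatocytes by collagenase perfusion from wild-type (WT) mice and profiled them by droplet-based single-cell RNA-seq of transcript 3′ ends. For 12 weeks the first group ate normal diet (ND) and the second 60% high fat diet (HFD). The food of the third was 60% HFD to which 0.25% hyodeoxycholic acid (HDCA), a bile acid, had been added. The third group is called HDCA here. Each diet had 1 library. The number, sex and age of the mice behind a library were not given in the sources used here. Differences between diets therefore have no replicate check, no p-values are given, and every interval is a 95% counting interval on molecules that does not cover variation between mice, cell preparations or libraries.

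Hepatocytes make cholesterol from acetyl-CoA: the mevalonate steps build isoprenoid units, these are joined to squalene, and squalene is cyclised and trimmed to the sterol. Transcription of most of these enzymes is driven by the sterol-sensing factor SREBP-2, which is held back in the endoplasmic reticulum when membrane sterol is high, while sterol export genes such as Abca1, Abcg5 and Abcg8 are targets of the liver X receptors. The liver is the main organ that both makes cholesterol and passes it into bile.

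After removal of barcodes with fewer than 200 genes or with over 50% mitochondrial counts, 2776 ND, 2898 HFD and 3000 HDCA barcodes remained, with 4274662, 3734740 and 5795200 nuclear-encoded counts. Before that step the median mitochondrial share of a barcode was 61.1% in ND, 63.1% in HFD and 14.5% in HDCA, so the HDCA library stood apart in the quality of its barcodes; the part of this in the results was not tested. All 8 hepatocyte markers were detected in each library, at 94272, 83392 and 95735 counts per 1000000 nuclear-encoded counts (CPM). Barcodes with at least 3 markers of 1 non-hepatocyte class made up 4.03%, 1.52% and 2.10% of the ND, HFD and HDCA barcodes. Endothelial markers summed to 306, 52.5 and 73.9 CPM, and Epcam, Krt19, Krt7 and Cftr, which mark bile duct cells, were at 0 in all 3 libraries, while Sox9, the other marker of that list, summed to 93.1, 26.8 and 29.5 CPM. The part of these classes in the results was tested only by leaving out their barcodes, which changed no synthesis sum beyond its counting interval. Of the retained barcodes, 5 were shared by HFD and ND and 1 by HDCA with each of the others. Erythroid markers summed to 0, 342 and 26.2 CPM and B-cell markers to 10.995, 148 and 123 CPM. A lower summed level in such data cannot be told apart from fewer expressing cells.

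Promoter windows are shown first because many of the synthesis genes differed in the same direction between the libraries. The RefSeq promoter table (build GRCm38.p6) held an entry for 21 of the 28 members and for 17 of the 20 synthesis genes; Fdps, Fdft1, Sqle, Stard4, Npc1, Soat2 and Scarb1 had none. The windows searched were the 250 bases before the RefSeq start. The stretches below are those of Hmgcs1 (chr13:119690101-119690350, plus strand), Mvd (chr8:122443423-122443672, minus strand) and Hsd17b7 (chr1:169969242-169969455, minus strand), which were at least 2-fold higher in HFD than in ND, and of Sc5d (chr9:42264301-42264550, minus strand), the synthesis gene with the most counts, which was level between those libraries. All lie upstream of the gene's own annotated exons; that of Hsd17b7 stops after 214 bases, where an annotated exon begins. Capitals mark the sterol regulatory element TCACNCCAC and the CCAAT box CCAAT, each searched on both strands, so that ATTGG is a CCAAT box on the other strand.
Hmgcs1: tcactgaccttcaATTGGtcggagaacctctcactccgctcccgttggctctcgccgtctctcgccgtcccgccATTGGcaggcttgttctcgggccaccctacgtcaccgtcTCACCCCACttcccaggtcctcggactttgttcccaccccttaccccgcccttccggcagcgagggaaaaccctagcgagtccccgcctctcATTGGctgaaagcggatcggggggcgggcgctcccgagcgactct
Mvd: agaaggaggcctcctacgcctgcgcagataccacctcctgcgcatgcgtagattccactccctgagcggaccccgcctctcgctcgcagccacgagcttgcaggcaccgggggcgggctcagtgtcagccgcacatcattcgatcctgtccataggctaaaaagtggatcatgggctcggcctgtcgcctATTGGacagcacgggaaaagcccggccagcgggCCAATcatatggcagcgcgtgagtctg
Hsd17b7: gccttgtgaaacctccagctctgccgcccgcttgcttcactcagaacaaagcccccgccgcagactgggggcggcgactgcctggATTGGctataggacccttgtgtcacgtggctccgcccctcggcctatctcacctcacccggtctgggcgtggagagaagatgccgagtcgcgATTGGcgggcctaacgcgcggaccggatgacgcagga
Sc5d: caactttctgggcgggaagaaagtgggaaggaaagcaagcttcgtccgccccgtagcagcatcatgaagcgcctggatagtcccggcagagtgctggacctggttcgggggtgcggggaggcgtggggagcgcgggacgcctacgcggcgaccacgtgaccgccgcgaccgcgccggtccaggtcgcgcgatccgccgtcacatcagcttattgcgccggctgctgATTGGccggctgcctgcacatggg

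The sterol regulatory element as spelled was found in 1 member, Hmgcs1, where TCACCCCAC begins 137 bases before the start. It was present in 1.05% of the 32851 windows in the table. A CCAAT box stood in the windows of 16 of the 17 synthesis genes with an entry, Acat2 being the one without, against 40.4% of 6325 genes measured here and 33.8% of all windows. The GC box GGGCGG was in 15 of the 17, against 64.8% of measured genes, and the E-box CACGTG in 3, against 10.6%. These are letter matches in a fixed window and were not tested as binding sites.

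Abcg5 and Abcg8 encode the partners of 1 transporter that exports sterol into bile, and they start back to back. The 109 bases between their RefSeq starts (chr17:84683012-84683120, GRCm38.p6, plus strand) are intronic in a longer annotated Abcg8 model, which overlaps Abcg5 over 6710 bases on the opposite strand. They hold no match to the 4 motifs on the strand shown or its complement.
Abcg5 to Abcg8: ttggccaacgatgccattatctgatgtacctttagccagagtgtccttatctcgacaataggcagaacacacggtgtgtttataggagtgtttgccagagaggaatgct

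In HFD against ND the synthesis genes together were higher: their summed level was 1544 CPM in ND and 2473 CPM in HFD, a log2 ratio of 0.68 (interval 0.63 to 0.73). At least 2-fold higher were 7 of the 20 genes (Hmgcs1, Mvd, Idi1, Sqle, Cyp51, Msmo1 and Hsd17b7), where 2.85% of all tested features were, and 0 were at least 2-fold lower, where 3.53% of features were. The median log2 ratio was 0.69 over the synthesis genes and -0.06 over all tested features. Sc5d supplied 40.9% of the synthesis counts in ND but 26.0% in HFD, and without it the sum was 912 CPM in ND and 1830.1 CPM in HFD, a log2 ratio of 1.01.

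In HDCA against HFD the sum was higher again, at 3819 CPM, a log2 ratio of 0.63 (0.59 to 0.66). Over whole libraries Acat2, Pmvk and Mvd, all of the mevalonate steps, were at least 2-fold higher. That is 3 of 20, where 1.63% of features were past that fold. At least 2-fold lower were 0 of 20, where 1.48% of features were. The log2 ratios of the 20 genes ran from 0.19 (Tm7sf2) to 1.66 (Mvd) with a median of 0.64, where the median of all features was 0.05. Counting intervals lay above 0 for 17 of the 20, the exceptions being Ggps1, Tm7sf2 and Lbr. In barcodes thinned to equal depth Acat2 fell to 0.76, short of 2-fold, while Pmvk and Mvd stayed past it. Mvk, at 1.07, Fdps, at 1.55, Sqle, at 1.23, and Lss, at 1.60, then passed it too. The limit of the 2-fold genes to the mevalonate steps thus depends on depth.

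In HDCA against ND, 15 of the 20 synthesis genes were at least 2-fold higher and 0 lower, where 2.62% and 2.97% of features were past those folds. Of these 15, Mvk and Mvd passed the rule of 100 summed counts only through the HDCA library, where they were highest. The median log2 ratio was 1.49. This comparison shares its libraries with the others and is no separate evidence. The 5 genes short of 2-fold were Ggps1, Tm7sf2, Lbr, Ebp and Sc5d. The plot of levels by library shows the order ND, HFD, HDCA in most synthesis genes and, outside them, in Stard4 and Npc1.

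**Figure D1:**
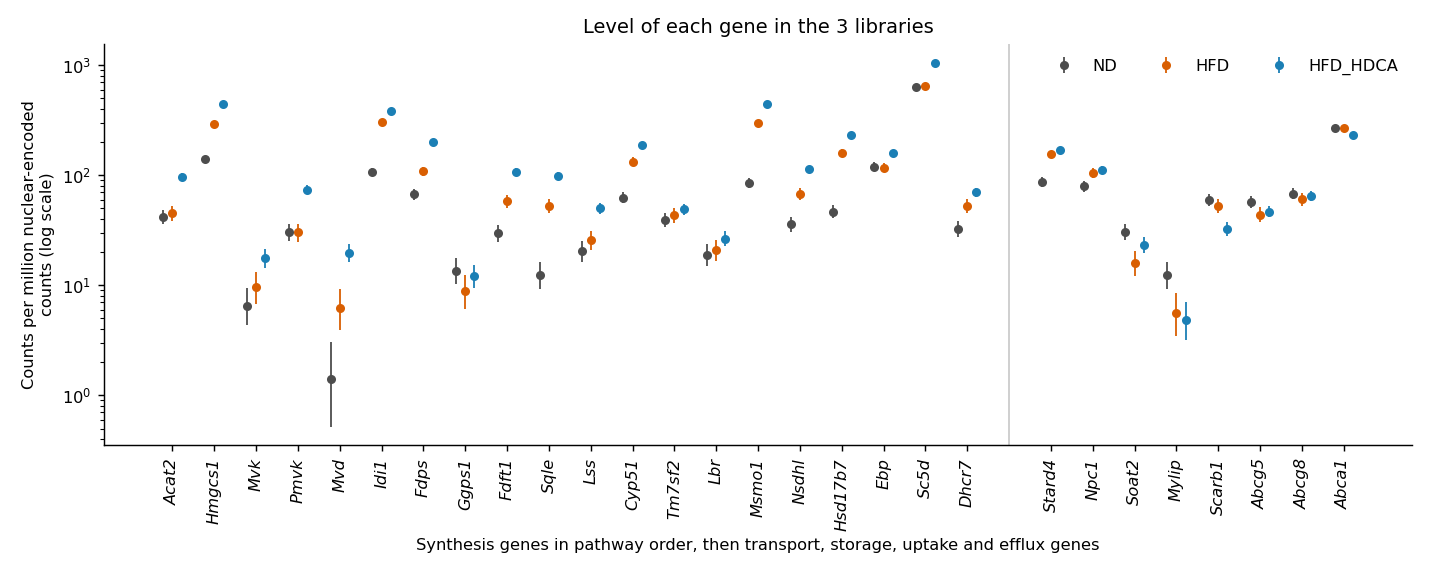
Level of each of the 28 genes in the ND, HFD and HDCA libraries (HFD_HDCA in the key), in CPM on a log scale, with 95% counting intervals and 1 library per diet. Hmgcs1 stands at 139, 291 and 442 CPM, whereas Abca1 stands at 266, 267 and 234 CPM.

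The mevalonate steps turn acetyl-CoA into isopentenyl diphosphate. Hmgcs1, the synthase that makes HMG-CoA, stood at 139 CPM in ND, 291 CPM in HFD and 442 CPM in HDCA. Its log2 ratio was 1.06 (0.92 to 1.21) for HFD against ND and 0.60 (0.50 to 0.70) for HDCA against HFD. On the log2 scale the larger step thus lay between the first pair, while in CPM the steps were similar. Acat2, the cytosolic thiolase at the head of the pathway, stood at 42.1, 45.3 and 96.1 CPM. Over whole libraries it was level between ND and HFD, at 0.10 (-0.21 to 0.41), and higher in HDCA than in HFD, at 1.08 (0.84 to 1.34). Its close paralog Acat3 went the other way, at 210, 183 and 139 CPM, and how reads were split between the pair is uncertain.

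Over whole libraries Pmvk, the phosphomevalonate kinase, followed Acat2 and not Hmgcs1, with 30.4, 30.3 and 74.0 CPM. Its ratio of HDCA to HFD was 1.29 on the log2 scale (0.99 to 1.60). Mvk, the kinase before it, had 28, 36 and 102 counts, and the interval of its HFD to ND ratio, -0.20 to 1.32, spans 0. Mvd, the decarboxylase that closes this block, had 6, 23 and 115 counts (1.40, 6.16 and 19.8 CPM). Its ratios, 2.05 (0.80 to 3.72) and 1.66 (1.03 to 2.40), were thus wide but above 0 in both steps. The first was 1.44 in thinned barcodes and 2.88 with barcodes weighted equally, and HDCA against ND moved from 3.71 to 4.99 with that weighting.

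Idi1 isomerises the isoprenoid unit, and Fdps and Ggps1 extend it. Idi1 stood at 107, 305 and 384 CPM, with log2 ratios of 1.51 (1.35 to 1.67) for HFD against ND and 0.33 (0.23 to 0.44) for HDCA against HFD. Fdps stood at 66.9, 108 and 201 CPM, with ratios of 0.70 (0.47 to 0.92) and 0.89 (0.72 to 1.05). In barcodes thinned to 500 counts these were 0.018 and 1.55, so the size of each Fdps step depends on depth. Ggps1, whose product leaves the sterol route for protein prenylation, stood at 13.6, 8.84 and 12.1 CPM. It was the 1 synthesis gene with a log2 ratio below 0 in HDCA against ND, at -0.17 (-0.69 to 0.36), an interval that spans 0.

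Fdft1, Sqle and Lss make squalene, oxidise it and close the sterol rings. Sqle, a rate-limiting oxygenase, stood at 12.4, 52.5 and 98.9 CPM, with log2 ratios of 2.07 (1.64 to 2.55) and 0.91 (0.68 to 1.16). Fdft1 stood at 29.9, 58.1 and 108 CPM and Lss at 20.4, 25.7 and 50.2 CPM. Lss was within counting error between ND and HFD, at 0.34 (-0.10 to 0.77), while in HDCA against HFD the 3 genes had ratios from 0.89 to 0.96. In thinned barcodes those were 0.66 for Fdft1, 1.23 for Sqle and 1.60 for Lss, so their order depends on depth.

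The 9 genes after ring closure did not move as a block. Msmo1, which strips methyl groups from the sterol ring with Nsdhl and Hsd17b7, stood at 85.6, 297 and 442 CPM, and Hsd17b7 at 46.8, 158 and 232 CPM. Both had their larger ratio between HFD and ND, at 1.79 (1.62 to 1.97) and 1.76 (1.52 to 1.997), and a smaller one between HDCA and HFD, at 0.57 and 0.55. Nsdhl stood at 35.8, 67.2 and 113 CPM and Cyp51, the demethylase ahead of them, at 62.7, 133 and 187 CPM.

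By contrast Ebp, Sc5d, Tm7sf2 and Lbr, which shift, introduce or reduce double bonds, were level between ND and HFD over whole libraries. Sc5d stood at 632 CPM in ND, 643 CPM in HFD and 1036 CPM in HDCA. It gave 0.02 (-0.06 to 0.10) for HFD against ND, from 2401 and 2702 counts, and 0.69 (0.62 to 0.76) for HDCA against HFD. Ebp stood at 120, 117 and 159 CPM with the same shape. Tm7sf2 (39.3, 43.1 and 49.2 CPM) and Lbr (19.0, 20.9 and 26.6 CPM) both reduce the same double bond. In thinned barcodes Lbr gave 0.73 for HFD against ND, against 0.14 (-0.33 to 0.61) in all barcodes, from few counts. Dhcr7, which catalyses the last reduction on its branch, stood at 32.8, 52.5 and 69.7 CPM, with 0.68 (0.36 to 1.004) for HFD against ND.

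**Figure D2:**
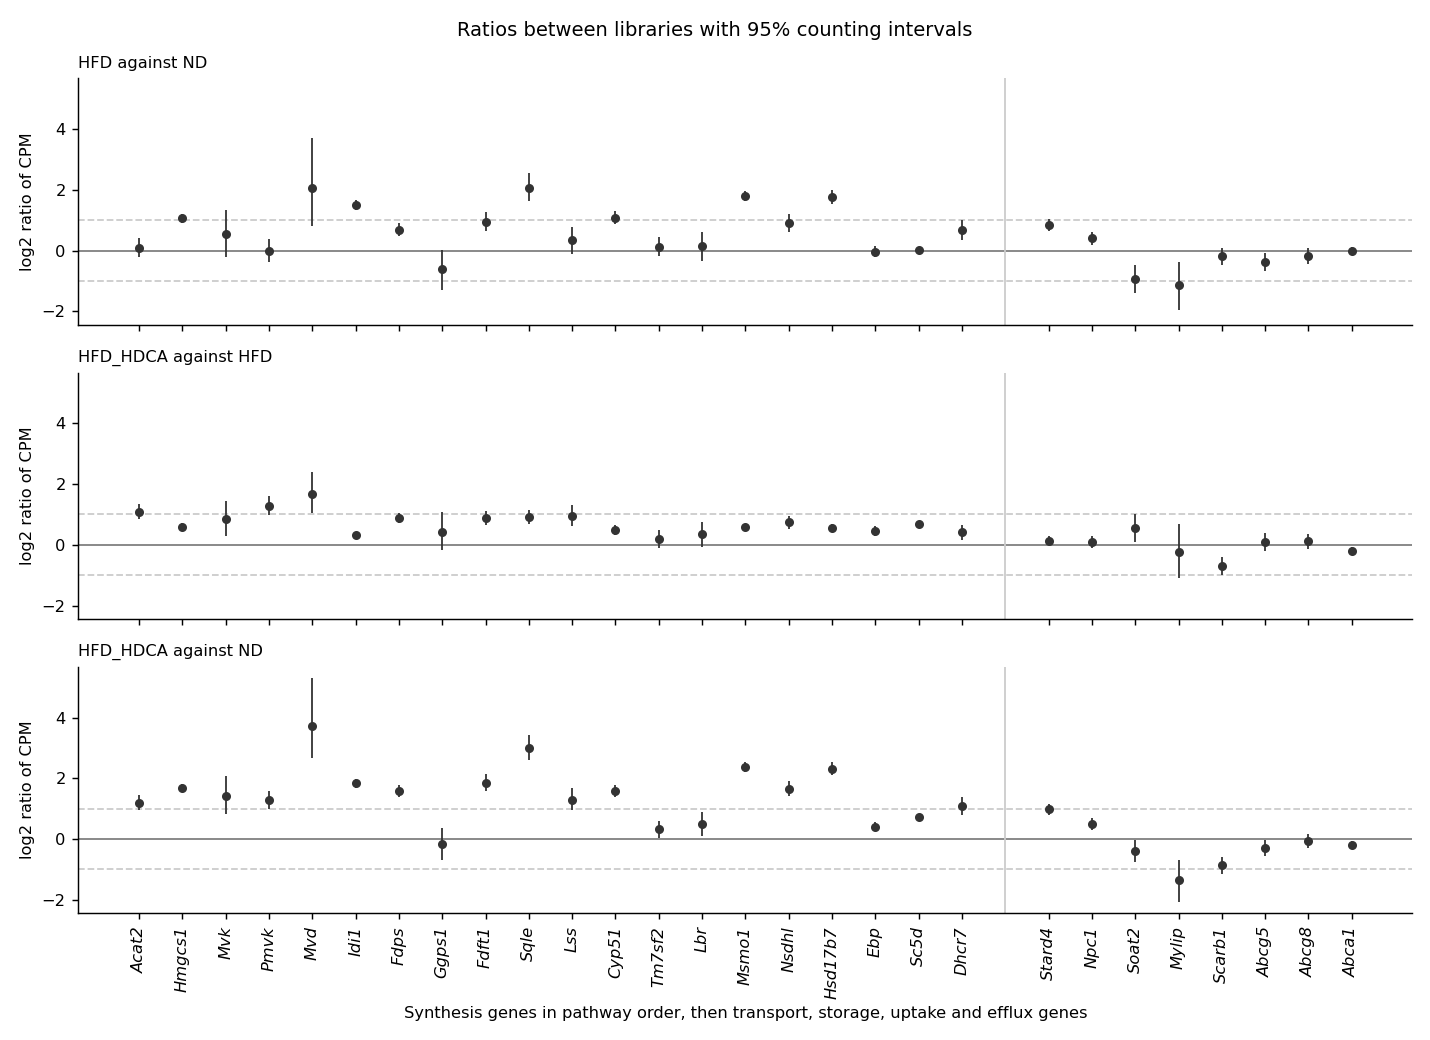
Log2 ratio of CPM for each of the 28 genes in HFD against ND, HDCA against HFD and HDCA against ND (top to bottom), with 95% counting intervals; dashed lines mark a 2-fold difference. Sqle, Msmo1 and Hsd17b7 lie well above 2-fold in HFD against ND, whereas Sc5d and Ebp lie at 0.02 and -0.03.

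The 8 genes that handle sterol after its synthesis had a summed level of 659, 705 and 689 CPM. In HFD against ND 0 of the 8 were at least 2-fold higher, where 2.85% of features were, and 1, Mylip, was lower, where 3.53% were. In HDCA against HFD neither direction had any, where 1.63% and 1.48% of features were past 2-fold. In HDCA against ND Mylip again was the 1 gene lower and none was higher, where 2.97% and 2.62% were. Nearest to the enzymes were Stard4, a soluble sterol carrier, at 86.3, 154 and 170 CPM, and Npc1, which releases cholesterol from the lysosome, at 79.3, 105 and 112 CPM. For both, HFD exceeded ND, at 0.84 (0.65 to 1.03) and 0.40 (0.19 to 0.62), but the HDCA to HFD ratios, 0.14 (-0.01 to 0.29) and 0.10 (-0.09 to 0.28), spanned 0. In thinned barcodes Npc1 gave 0.76 for HFD against ND and -0.47 for HDCA against HFD, so its second direction depends on depth.

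Soat2, which esterifies cholesterol for storage and secretion in hepatocytes, was lower in HFD, at 30.7, 16.1 and 23.5 CPM. Its log2 ratio was -0.93 (-1.40 to -0.48) for HFD against ND and 0.54 (0.10 to 1.01) for HDCA against HFD. Scarb1, the receptor that takes cholesterol from HDL, stood at 59.4, 52.5 and 32.6 CPM and was lower in HDCA than in HFD, at -0.69 (-0.98 to -0.39). Over whole libraries the efflux genes were the flattest. Abca1, which loads sterol onto apolipoprotein A-I, stood at 266, 267 and 234 CPM, Abcg5 at 57.1, 43.9 and 46.8 CPM, and Abcg8 at 68.1, 60.2 and 65.2 CPM. The largest of their whole-library ratios was -0.38 (-0.67 to -0.09), for Abcg5 in HFD against ND.

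Mylip encodes a ubiquitin ligase that marks lipoprotein receptors for degradation, and its counts came mostly from barcodes of other cell classes. Of its 53 ND, 21 HFD and 28 HDCA counts, 46, 20 and 22 lay in the barcodes with at least 3 markers of 1 non-hepatocyte class, which is 86.8%, 95.2% and 78.6%. Only 7, 1 and 6 counts remained in all other barcodes. The share of such barcodes was itself higher in ND, at 4.03%, than in HFD and HDCA, at 1.52% and 2.10%, and the Mylip values give no direction for hepatocytes. The synthesis sum was carried by the other barcodes: it was 854, 962 and 1417 CPM in the non-hepatocyte class and 1563, 2489 and 3846 CPM in the rest. Lbr, also a nuclear envelope protein, had 18.5% of its ND counts in the non-hepatocyte class, against 7.69% and 4.55% in the other libraries.

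A list of 44 further genes of sterol sensing, electron supply, isoprenoid use and lipoprotein handling was read beside the members; 35 had at least 100 counts. In HFD against ND 1 of these 35 was at least 2-fold higher, where 2.85% of all features were, and 1 was lower, where 3.53% were. The higher one was Por, the reductase that passes electrons to Sqle and Cyp51, at 71.1, 257 and 148 CPM. In HDCA against HFD neither direction had any, where 1.63% and 1.48% of features were past 2-fold. In HDCA against ND 4 were higher, where 2.62% were, and 0 were lower, where 2.97% were. The higher ones were Por, Insig1, Tmem97 and Erg28. Insig1, which retains the SREBP-2 complex when sterol is high and is itself an SREBP target, stood at 426, 672 and 1232 CPM. Srebf2, the gene of SREBP-2, gave -0.12 (-0.48 to 0.23) and 0.03 (-0.30 to 0.37) in the 2 steps.

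Position in the lobule was read from a score of 8 pericentral against 8 periportal genes, and the hepatocyte barcodes of each library were ranked by it and divided into 3 equal parts. These are ranges of a score and not cell types: 15.2%, 14.7% and 17.5% of the ND, HFD and HDCA barcodes lay within 0.1 SD of a dividing value. Genes left out of the score behaved as their known zones, with 6 of 6 pericentral check genes, such as Cyp2c37, higher at the pericentral end and 6 of 6 periportal ones, such as Gls2, lower in all 3 libraries; Rhbg and Axin2 had few counts. Depth differed along the score. Median nuclear-encoded counts per barcode at the periportal end, in the middle and at the pericentral end were 2203, 658 and 670 in ND, 1623, 531 and 737 in HFD, and 2329, 814 and 999 in HDCA, so ratios are also given after every barcode was thinned to 500 counts.

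The synthesis sum was higher at the pericentral than at the periportal end in each library: 1958 against 1377 CPM in ND, 2690 against 2245 CPM in HFD, and 4241 against 3464 CPM in HDCA. The log2 ratios were 0.51, 0.26 and 0.29, and 0.38, 0.42 and 0.22 after thinning. The early enzymes had the larger ratios, at 1.10 (0.95 to 1.26), 0.47 (0.35 to 0.59) and 0.44 (0.36 to 0.52), against 0.29, 0.16 and 0.22 for the late ones. After thinning the early ratios were 0.92 (0.61 to 1.24), 0.70 (0.44 to 0.96) and 0.37 (0.20 to 0.53). The late ones were then 0.16, 0.28 and 0.15. The thinned early intervals of ND and HFD overlap, so the contrast between those libraries depends on depth. That of HDCA stayed below that of ND. Before thinning, the gap between the ends in CPM was 345 for the early and 237 for the late enzymes in ND. It was 253 and 192 in HFD, and 371 and 406 in HDCA. At the pericentral end of ND 3 of the 20 synthesis genes, Hmgcs1, Pmvk and Fdps, were at least 2-fold higher, where 2.49% of features were. Mvk was at least 2-fold lower there, from 2 against 19 counts, where 1.34% of features were. In HFD there were 0 and 0, where 2.8% and 1.97% of features were past 2-fold, and in HDCA 0 and 0, where 2.39% and 1.78% were. These shares are of the 3812 ND, 3396 HFD and 4654 HDCA features with at least 100 counts over the 2 ends. Only 13, 14 and 17 of the 20 synthesis genes met that rule, and in ND Pmvk and Mvk did not. The gene counts and the shares thus cover unlike sets. Whether the early gradient differed between the libraries beyond mouse-to-mouse variation cannot be tested with 1 library each.

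Hmgcs1 showed the pericentral side in each library before and after thinning, with 1.28 (1.01 to 1.55), 0.71 (0.51 to 0.91) and 0.73 (0.60 to 0.86) in ND, HFD and HDCA, and 0.87, 0.91 and 0.64 at 500 counts. Fdps did so too, at 1.44, 0.81 and 0.49, and 0.78, 0.98 and 0.38 at 500 counts. Msmo1 read 0.96, 0.85 and 0.70, but in ND the value at 500 counts was -0.08 (-0.80 to 0.64), so its ND gradient depends on depth. Sqle did not share the pericentral side in HFD and HDCA: it was lower at the pericentral end in HFD, at -0.58 (-1.09 to -0.09), and in HDCA, at -0.53 (-0.82 to -0.24). At 500 counts those Sqle intervals, -1.63 to 0.90 and -0.74 to 0.41, spanned 0. In ND Sqle gave 0.44 (-0.64 to 1.41), from 14 pericentral and 25 periportal counts. Lss, the next enzyme, was also lower at the pericentral end in HDCA, at -0.54 (-0.98 to -0.12), and Sc5d in HFD, at -0.26 (-0.39 to -0.13).

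Among the efflux genes Abca1 was lower at the pericentral end of ND, with 187 against 326 CPM, a ratio of -0.80 (-1.04 to -0.57). In HFD and HDCA it was -0.20 (-0.41 to 0.00) and -0.10 (-0.28 to 0.08). Abcg8 had its clearest gradient in HDCA, with 89.5 CPM at the pericentral and 37.6 CPM at the periportal end, a ratio of 1.25 (0.88 to 1.63), and 1.24 (0.36 to 2.24) at 500 counts. Its partner Abcg5 gave 0.86 (0.44 to 1.29) there and 0.71 (-0.12 to 1.60) at 500 counts. Between libraries, Abcg5 at the periportal end gave -0.74 (-1.21 to -0.30) in HFD against ND. In HDCA against ND that end gave -0.89 (-1.29 to -0.50) for Abcg5 and -0.87 (-1.25 to -0.51) for Abcg8. The pericentral intervals of this pair spanned 0 in both comparisons. In the middle, HDCA against ND gave 0.52 (0.05 to 1.01) for Abcg8 and -0.18 (-0.69 to 0.34) for Abcg5. Abca1 at the pericentral end gave 0.50 (0.23 to 0.77) in HFD against ND. At 500 counts the periportal end held 56.3, 49.2 and 43.3 CPM of Abcg5 in ND, HFD and HDCA. For Abcg8 it held 84.5, 55.4 and 32.5 CPM.

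**Figure D3:**
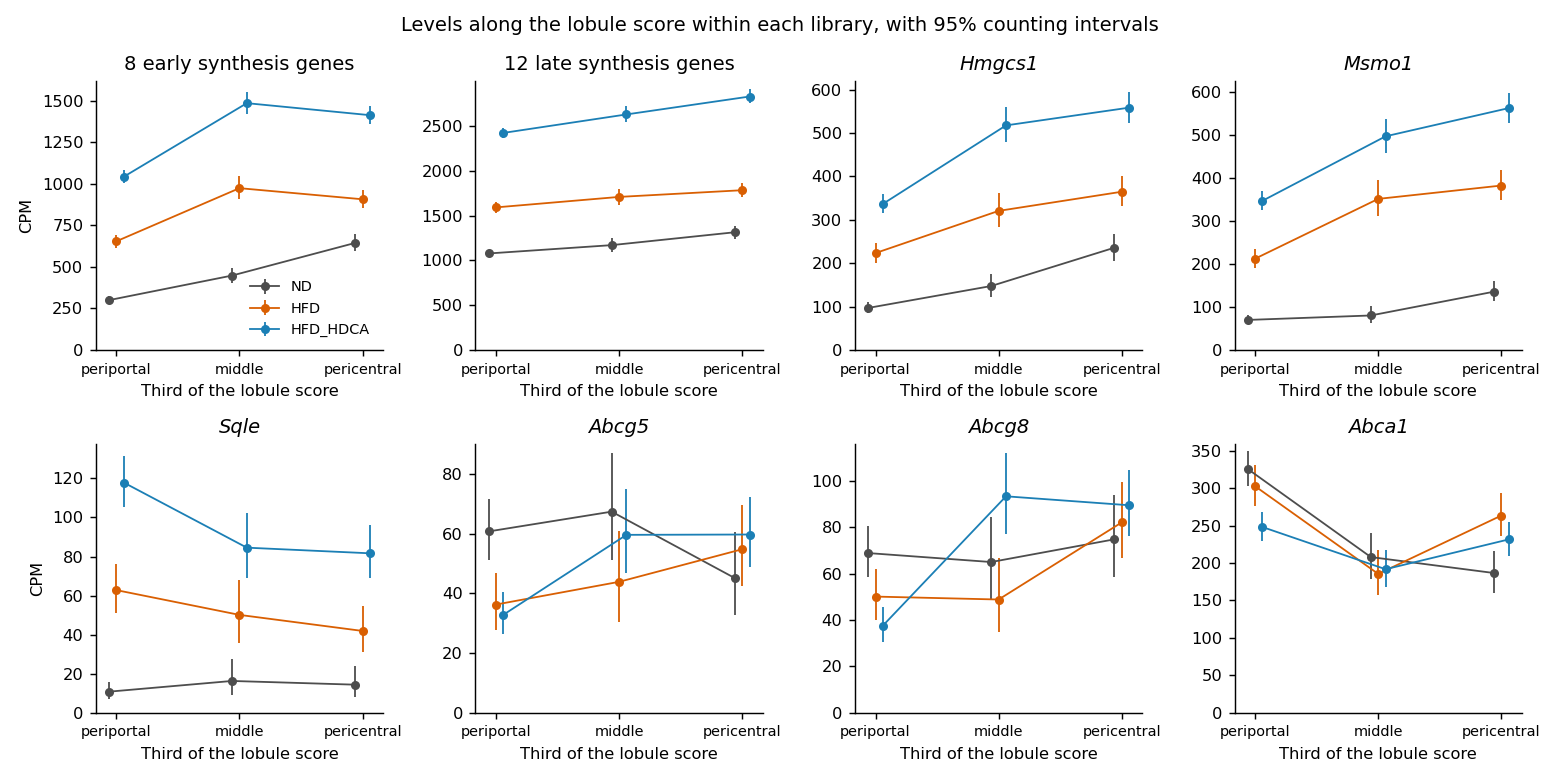
CPM along the lobule score (periportal end, middle, pericentral end) for the 8 early and 12 late synthesis genes and for 6 single genes, by library, with 95% counting intervals. The early sum is higher at the pericentral than at the periportal end in each library, Sqle is lower there in HFD and HDCA but not in ND, and Abcg8 climbs most in HDCA.

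The synthesis sum differed between diets in the same direction within each of the 3 score ranges, but not every single gene did. In HFD against ND the synthesis sum gave 0.71 at the periportal end, 0.73 in the middle and 0.46 at the pericentral end, and in HDCA against HFD it gave 0.63, 0.62 and 0.66. At the pericentral end intervals spanned 0 for Fdps in HFD against ND, at 0.26 (-0.10 to 0.62), and for Pmvk in HDCA against ND, at 0.19 (-0.28 to 0.70). For the early enzymes the HFD to ND ratio was 1.12 (0.99 to 1.26) at the periportal and 0.49 (0.35 to 0.64) at the pericentral end. At 500 counts the early enzymes stood at 338 CPM in ND and 609 CPM in HFD at the periportal end, and at 641 and 989 CPM at the pericentral end. Those ratios were 0.85 (0.52 to 1.18) and 0.63 (0.38 to 0.87), and their intervals overlap, so the contrast between the ends depends on depth. Among single genes in HFD against ND, Pmvk gave 0.78 (0.18 to 1.39) at the periportal and -1.05 (-1.73 to -0.41) at the pericentral end. Acat2 gave 0.38 (-0.10 to 0.85) and -0.59 (-1.14 to -0.05), and Sc5d 0.20 (0.09 to 0.32) and -0.19 (-0.34 to -0.04). Before thinning, their level whole-library values thus held opposite signs at the ends, though the periportal Acat2 interval spanned 0. At 500 counts Sc5d was lower in HFD than in ND at both ends. It stood at 615 against 661 CPM at the periportal and 564 against 664 CPM at the pericentral end. Pericentral Acat2 was then 61.6 CPM in HFD and 66.7 CPM in ND, and Pmvk 58.6 and 69.2 CPM. These single-gene contrasts thus also depend on depth. The pericentral score genes themselves summed to 2672 CPM in ND but 7878 and 8182 CPM in HFD and HDCA, so equal ranks in the score need not mean equal places in the lobule; the part of this in the comparison was not tested.

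Whether the enzymes varied together from cell to cell was described by co-occurrence: the products of 2 counts summed over the barcodes of a library, divided by the value if each count followed only the barcode's total. A ratio of 1 means no joint variation. Between early and late enzymes it was 0.94 in ND, 1.29 in HFD and 1.03 in HDCA, and 1.06, 1.21 and 1.04 at 500 counts. Over features outside the members, co-occurrence with the synthesis sum had 5th to 95th percentiles of 0.821 to 1.05 in ND, 0.885 to 1.12 in HFD and 0.872 to 1.06 in HDCA. These are single features against a sum, so the span is a guide to scale and not a limit for 2 sums. Pearson's r of log levels between early and late enzymes was low in each, at 0.08 over 2776, 0.13 over 2898 and 0.08 over 3000 barcodes.

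At 500 counts all 15 HFD synthesis genes with at least 30 counts lay above the 95th percentile of the library's other features, from 1.15 (Ebp) to 1.42 (Nsdhl), where a median of 1.003 and a 95th percentile of 1.10 held for 510 features with at least 300 counts. In ND 4 of 14 did so and 2 lay below the 5th percentile, and in HDCA 10 of 19 did so and 1 lay below. Members with fewer counts have a larger counting error than those features. Those with 300 or more counts were Sc5d in ND, at 1.10, Idi1 and Sc5d in HFD, at 1.416 and 1.196, and 6 genes in HDCA, among them Hmgcs1 at 1.02, Msmo1 at 1.12 and Hsd17b7 at 1.11. Without thinning, HFD Ebp (438 counts) gave 1.06, within that library's span of 0.885 to 1.12. Also within it were Lbr at 0.971 (78 counts), Ggps1 at 1.01 (33 counts) and Mvd at 1.11 (23 counts), which were not among the 15. For the summed efflux genes at 500 counts, co-occurrence with the enzymes was 0.94 in ND and 1.04 in HFD, within the span of the other features. In HDCA it was 1.12, above their 95th percentile of 1.07, with Abcg5 at 1.23 (79 counts) and Abcg8 at 1.28 (83 counts). Without thinning the HDCA efflux sum gave 1.040, below the 95th percentile of 1.056 there. Abcg5 (271 counts) gave 0.947 and Abcg8 (378 counts) 1.057, so the HDCA values of the efflux sum and Abcg5 depend on depth.

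**Figure D4:**
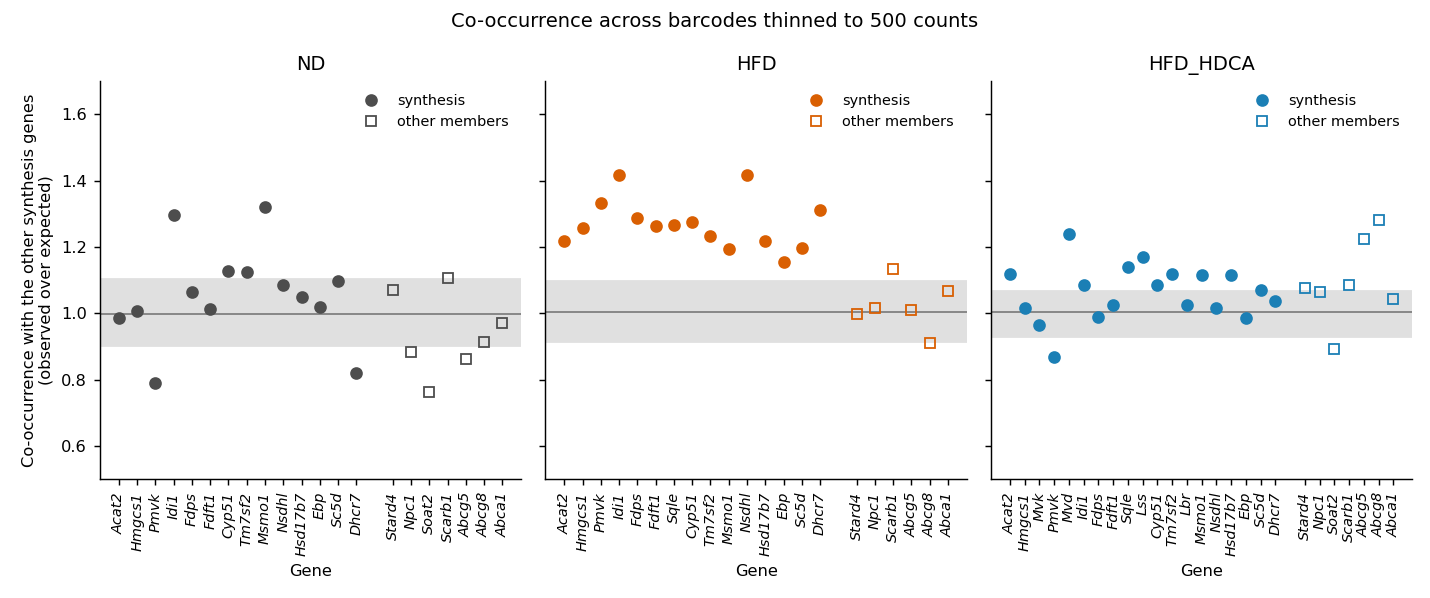
Co-occurrence of each gene with the other synthesis genes in ND, HFD and HDCA, across barcodes thinned to 500 counts, for genes with at least 30 counts (filled, synthesis; open squares, other members). The grey band spans the 5th to 95th percentile of features outside the members with at least 300 counts and the line their median; all 15 HFD synthesis genes lie above the band.

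The same pattern showed when HFD barcodes were divided by 1 gene. Where Idi1 had a count, in 777 HFD barcodes, the other synthesis genes summed to 2714 CPM (2628 to 2802), and in the 2121 without it to 1845 CPM (1791 to 1901), a log2 ratio of 0.56. A count of Hmgcs1 gave 0.49 and of Sqle 0.52, and one of Abcg5 gave -0.04. In ND a count of Idi1 gave 0.08 and of Abcg5 -0.084. In HDCA the ratio was 0.15 for Idi1, 0.12 for Sqle and 0.13 (0.07 to 0.18) for Abcg5. Barcodes with an Idi1 count were deeper, at a median of 1520 against 631 in HFD, 2016.5 against 762.5 in ND and 2198 against 790.0 in HDCA.

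At 500 counts a barcode held a mean of 0.801 synthesis counts in ND, 1.18 in HFD and 1.99 in HDCA. The thinning left out 339 ND, 925 HFD and 179 HDCA barcodes that were too shallow. The share with no synthesis count was 46.3% in ND (44.3 to 48.3), 36.2% in HFD (34.1 to 38.4) and 15.2% in HDCA. Without thinning, 75%, 79.0% and 95.03% of barcodes had at least 1 such count. Variance over mean was 1.08 in ND, 1.33 in HFD and 1.15 in HDCA, where counting alone gives about 1, so HFD barcodes were the most unequal although HDCA barcodes had the most counts. At least 5 synthesis counts were held by 5 ND barcodes (0.205%), 36 HFD barcodes (1.82%) and 6.52% of HDCA barcodes.

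**Figure D5:**
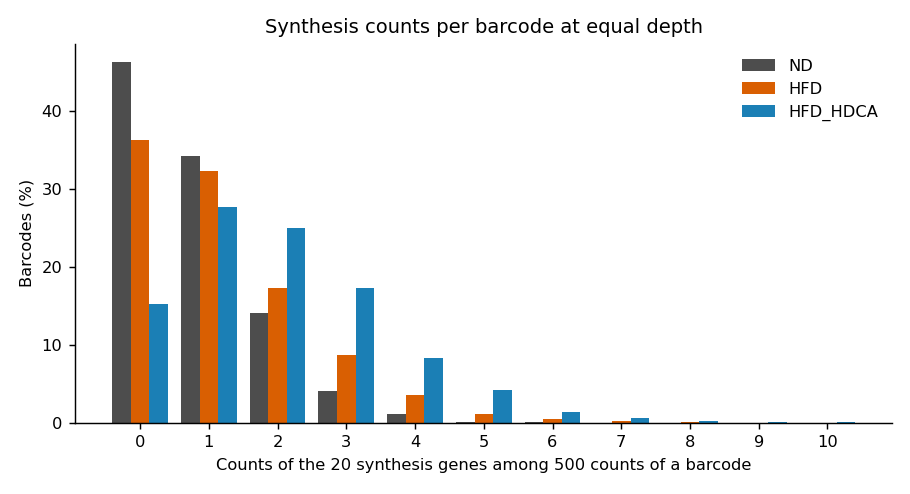
Share of barcodes (%) by the number of counts of the 20 synthesis genes among 500 nuclear-encoded counts drawn from each, in 2437 ND, 1973 HFD and 2821 HDCA barcodes. Barcodes with 0 counts are 46.3% in ND, 36.2% in HFD and 15.2% in HDCA.

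Outside the members, the features most like the synthesis sum were ranked by their lowest co-occurrence ratio over the 3 libraries, among 1566 features with at least 300 counts in each. Those at the head included Cyp1a2 (1.14 in ND, 1.10 in HFD and 1.12 in HDCA), Gulo, Tlcd2, Glul, Cyp4a10, Cyp2c29, Acss2, Cpn2 and Acsl5. Cyp1a2, Gulo and Glul belong to the pericentral score, and Glul had 16.05% of its counts of a library in 1 barcode. Acss2, which makes cytosolic acetyl-CoA from acetate, differed in size between libraries, with 1.10 in ND, 1.48 in HFD and 1.07 in HDCA. Picked after their values were seen, Erg28, Me1 and Elovl6 also ranked high within HFD, at 1.24, 1.204 and 1.203. Slc10a2 stood above them there, at 1.29, and Hamp2 and Ces2e just below, at 1.196 and 1.195.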

How the data were processed

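The authors deposited whole-number molecule counts per gene and barcode for 3 libraries, made with Cell Ranger 5.0.0 per the file headers, on mm10 per the submitters' processing notes; strand use in counting is not given in the sources used here. Retained barcodes (at least 200 genes, at most 50% mitochondrial counts) were summed per library and scaled to 1000000 nuclear-encoded counts; no doublet caller was run. Log2 ratios added 0.5 to each count, with exact binomial 95% counting intervals. No test between diets was possible with 1 library each, and a gene was counted as past 2-fold from its ratio alone. All 28 members are named. Of the pathway list, genes past 2-fold with at least 100 counts are named, and of non-members the 10 with the highest lowest co-occurrence; some genes that these rules name are not reported here. Members, lists and rules were chosen with earlier results of these data known. Shares of barcodes are compared after thinning to 500 counts. Overlapping annotated genes on the opposite strand affect 9 members, and Tm7sf2 overlaps Vps51 on its own strand. The scripts (Python 3.11.15, numpy 2.4.6, scipy 1.17.1) were tested on simulated data.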

Additional observations from a re-analysis of the deposited data

Results flagged for a closer look

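Barcodes left out for few genes or a high mitochondrial share carried the same members' counts. There the synthesis genes summed to 1711 CPM in ND (2979 barcodes), 2617 CPM in HFD (3392 barcodes) and 4031 CPM in HDCA (1873 barcodes), in the same order as in the retained barcodes. The counts of these barcodes enter no comparison above.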

How the results depend on the processing

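No paired analysis was possible because each diet had 1 library. No synthesis sum changed direction under the alternatives tried, but several values moved by more than their counting interval, the handling sum changed sign in HDCA against ND and, as the mean over the score ranges (0.02), in HDCA against HFD, and the co-occurrence in ND crossed 1. For the synthesis sum (log2 ratios), HFD against ND gave 0.74 with at least 500 genes, 0.55 in barcodes thinned to 500 counts, 0.57 with barcodes weighted equally, 0.62 as the mean over the 3 score ranges and 0.74 with median-of-ratios size factors. HDCA against HFD gave 0.76 thinned, 0.68 weighted equally and 0.57 with size factors, and HDCA against ND 1.35 with at least 500 genes, 1.25 weighted equally and 1.25 over the ranges. Without Sc5d, an alternative chosen after seeing the data, HFD against ND gave 1.01 and HDCA against ND 1.61. The number of synthesis genes at least 2-fold higher in HDCA than in HFD was 6 thinned and 5 weighted equally. The handling sum gave -0.17 thinned in HDCA against HFD, and -0.032 thinned and 0.14 over the ranges in HDCA against ND. The pericentral to periportal ratio of the synthesis sum was 0.38 in ND, 0.42 in HFD and 0.22 in HDCA when thinned, and 0.67 in ND between outer sixths of the score. Co-occurrence of early and late enzymes in HFD was 1.32 with at most 20% mitochondrial counts, 1.21 thinned and 1.34 without the late gene with most counts. In HDCA it was 1.04 thinned, 1.04 within score ranges, 1.02 without barcodes of other classes and 1.05 without that gene, and in ND 1.06, 0.99 and 0.97 when thinned, within ranges and without that gene. The causes were not tested. Depth limits Mvd, Mvk, Ggps1 and Mylip most, which had few counts in at least 1 library. The thinned zone and co-occurrence values of single genes were also added after seeing the data.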
